A study of Mus musculus with 8 samples.

Results

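The genes described are 10 enzymes that make or salvage purine and pyrimidine nucleotides: Cad, Umps, Ctps, Ppat, Paics, Gart, Atic, Impdh2, Nme1 and Tk1. They were taken by name from a deposited table of 16434 genes, and all 10 were found. RNA was from C57BL/6 mouse bone marrow (8 to 10 weeks of age), and each of 8 groups had 1 library. The leukaemias, which arose under N-Myc overexpression, were sorted as GFP+ cells: B-ALL (B220+GFP+), T-ALL (CD3+GFP+), AML (Mac1+Gr1+GFP+) and AUL, an undifferentiated leukaemia (B220-CD3-Mac1-Gr1-GFP+). The normal libraries were sorted with the matching antigens from normal marrow as B cells (B220+), T cells (CD3+), myeloid cells (Mac1+Gr1+) and lineage-negative cells (B220-CD3-Mac1-Gr1-). The promoter that drives N-Myc, the number of animals per library and any clonality of a leukaemia were not given in the sources used here.

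A cell that divides has to double its DNA and make much RNA, and both need nucleotides. Purines are built stepwise on a ribose phosphate until inosine monophosphate (IMP) is reached, from which AMP and GMP are made. In pyrimidine synthesis the ring is closed before it is joined to ribose phosphate, which gives UMP and then UTP, CTP and thymidylate. Salvage enzymes recover bases and nucleosides, and in blood cells many of these enzymes are induced when the cells start to divide. MYC proteins bind the E-box CACGTG together with MAX, and several genes of nucleotide synthesis are known MYC targets.

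The E-box is shown first because it is the site that links these genes to MYC proteins in textbooks. CACGTG reads the same on both strands. It was looked for in the 250 bases before each RefSeq transcription start (build GRCm38.p6). All 10 genes matched a start, and 4 of them (40.0%) held the motif: Atic, Paics, Impdh2 and Nme1. Among 7226 genes tested in the expression data that matched a start, 709 (9.81%) held it, and among 64 other enzymes of nucleotide metabolism it was 6 (9.38%). The matches follow 5′ to 3′ on the gene's strand, with 12 bases on either side and the motif in capitals. No match says only that these letters are not in this window.
Atic: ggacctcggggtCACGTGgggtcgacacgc
Paics: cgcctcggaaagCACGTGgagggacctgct
Impdh2: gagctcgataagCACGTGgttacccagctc
Nme1, upstream start: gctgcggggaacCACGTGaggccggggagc
Nme1, downstream start: agcttgatacgcCACGTGggctcgcctttg

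The Atic match lies at chr1:71557149-71557154, from 7 bases before the start, and overlaps the first exon that GENCODE M21 gives to Atic, an exon that begins at the second base of the motif. The Impdh2 match (chr9:108560326-108560331) begins 110 bases before the RefSeq start, also within an annotated untranslated exon of the gene. The Paics match (chr5:76951099-76951104) begins 203 bases before its start, inside the untranslated part of an exon of Ppat, which is read from the other strand. Nme1 has a pair of RefSeq starts, and the matches begin 18 bases before the upstream start (chr11:93968285-93968290, minus strand) and 29 bases before the downstream start (chr11:93968049-93968054). A match is a description of the sequence and no evidence of binding in these cells.

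Levels are given in FPKM, fragments of a gene scaled by its transcript length and by the mapped fragments of the library, as the authors deposited them. The steps of the values gave totals of 33818615 to 52280282 fragments per library, and the members rested on 153 (Nme1 in normal myeloid cells) to 25637 fragments (Cad in T-ALL). Antigen genes were checked against the gates. By summed level the B220+ libraries were highest in 6 B-cell genes and the CD3+ libraries in 6 T-cell genes. AUL, gated against CD3, had Cd3d at 275.8 FPKM. The 6 T-cell genes summed to 1316 in AUL, beside 1557 in T-ALL and 66.5 in normal lineage-negative cells. AML, gated on Mac1 and Gr1, had Itgam (Mac1) at 1.63 and Ly6g at 8.91 against 208 and 798 in normal myeloid cells. Of the granule genes Mpo and Elane, AML had more than normal myeloid cells (2220 against 354 and 3481 against 445). The summed level of 7 myeloid genes was 113941 in normal myeloid, 20599 in normal lineage-negative and 10153 in AML cells, above the other 5 libraries. RNA of further cell types was found in both kinds of library. The summed level of 5 basophil and mast cell genes was 158 to 2567 FPKM in the normal libraries, highest in lineage-negative cells. It was 1.72 to 31.9 in the leukaemias (Ms4a2 and Fcer1a were at 0 in T-ALL and Cpa3 in AML). The 6 B-cell genes summed to 630 in normal T and 650 in normal lineage-negative cells. B-ALL had a myeloid sum of 7658, against 2288 in normal B cells, and Cd3d at 30.3 against 0.99. The part of such RNA in the results was not tested. In bulk RNA, fewer cells of a type and less RNA per cell cannot be told apart.

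All 10 enzyme genes had higher levels in every leukaemia than in any normal library. Such a separation was found for 16.0% of the 11071 genes tested, which had to reach an FPKM of 1 in 2 or more libraries. Genes were listed by the authors under a rule that is not stated. Each share of all genes given here is thus a share of listed genes, and may differ from that of the whole transcriptome. The lowest leukaemia exceeded the highest normal library by 1.02-fold (Tk1) to 2.04-fold (Ppat). By deposited FPKM the highest normal library was the lineage-negative one for every member. The lowest was the myeloid one for 9 of 10, with Tk1 the exception. Under median-ratio scaling normal T cells were the lowest for Umps as well. The share of all genes with such an order is not given here. The question for each leukaemia was how its cells differ from normal cells of the same gate. By a limma test over the 4 pairs, with p-values adjusted over all genes by Benjamini-Hochberg, 5 of 10 members rose (Cad, Nme1, Gart, Ctps and Ppat), against 1.26% of all genes called higher. The other 5 did not pass. All 10 were higher in 4 of 4 pairs, as were 25.9% of all genes.

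These calls were close to the threshold, with adjusted p from 0.0404 (Cad) to 0.0446 (Ppat), and leaving out any of the 4 pairs ended all of them (0 of 10 by limma, with 9 or 10 at an unadjusted p under 0.05, beside 25.2% to 33.4% of all genes). The labels do not say that libraries came from separate animals, so the p-values cannot be read as a spread between animals. They rest on the spread between these pairs, which limma moderates with that of the other genes (prior degrees of freedom 4.69, residual 3).

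**Figure D1:**
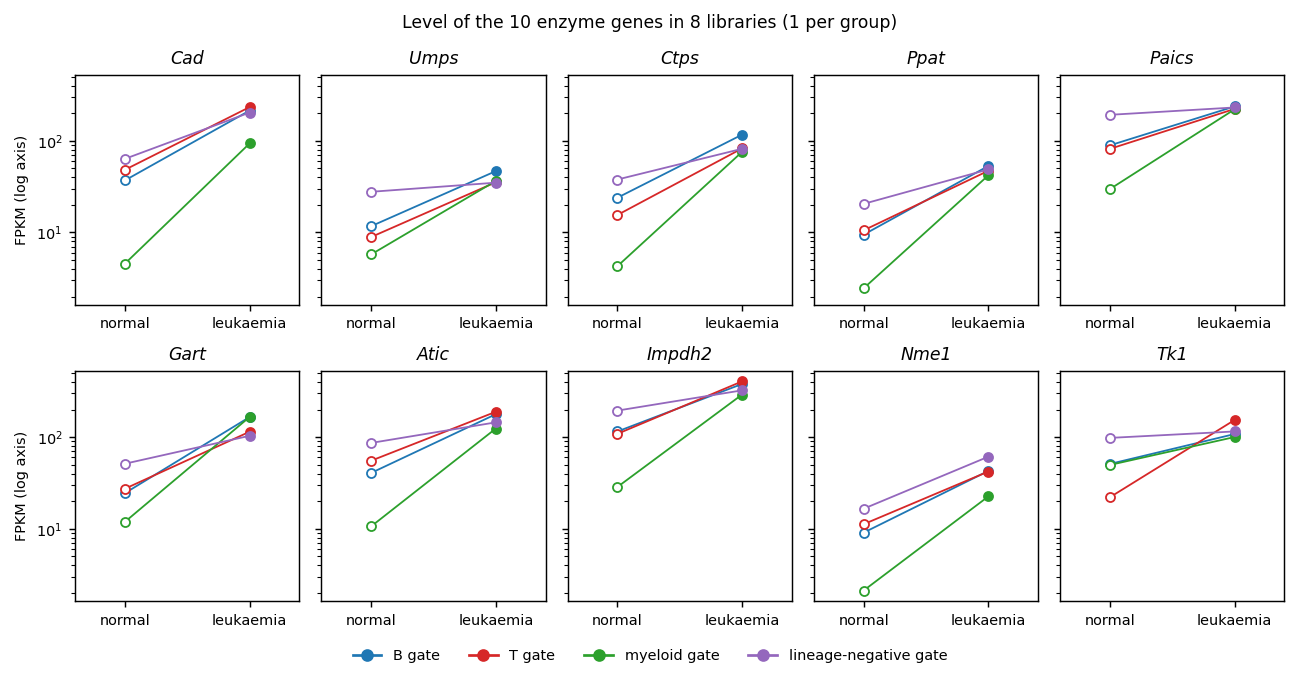
FPKM (log axis) of each enzyme gene in the 4 normal libraries (open circles) and the 4 leukaemias (filled circles), with a line joining the libraries of 1 gate and 1 library per point. Every filled circle lies above every open one in its panel, and Tk1 comes closest to overlap (100.2 in AML against 98.1 in normal lineage-negative cells).

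Among the pyrimidine enzymes Cad had the widest range. Cad, which carries out the opening steps of pyrimidine synthesis as a single large protein (ENSMUSG00000013629, mm10 chromosome 5, 31054780 to 31078479), reached 232.5 FPKM (T-ALL), 213.1 (B-ALL), 202.8 (AUL) and 93.3 (AML). The normal cells had 63.5 (lineage-negative), 48.2 (T), 37.0 (B) and 4.57 FPKM of Cad (myeloid). The AML level was less than that of the other leukaemias but 1.47-fold above the highest normal library, so the groups did not overlap. The normal myeloid level was by far the lowest, and the fold was greatest in the myeloid gate. It was 20.4-fold in AML (95% interval for the ratio of 2 counts, 18.8 to 22.2), 5.77-fold in B-ALL (5.57 to 5.97), 4.82-fold in T-ALL (4.67 to 4.98) and 3.20-fold in AUL (3.11 to 3.28). Such intervals cover counting error only, not the scaling between libraries. Median-ratio scaling, an alternative, divides by 0.58 in normal myeloid cells and by 1.17 in AML. Every AML fold given here is smaller under it. Scaling to a common FPKM sum divides by 1.16 and 0.99, which makes these folds larger. Over the pairs Cad rose by a mean log2 difference of 2.62 (limma SE 0.44, n = 4 pairs, adjusted p = 0.0404). These log2 differences are on the log2(FPKM + 1) scale, which understates the change of low genes. An exact permutation of the signs of the 4 differences gave a two-sided p of 0.125 for Cad and for each of the other 9 members, the smallest that 4 pairs can give.

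Umps, which completes UMP (ENSMUSG00000022814, chromosome 16, 33954782 to 33967038), was expressed at lower levels. The leukaemias had 46.6 (B-ALL), 36.5 (AML), 35.3 (T-ALL) and 34.9 FPKM of Umps (AUL), and the normal cells 27.8 (lineage-negative), 11.7 (B), 8.92 (T) and 5.77 (myeloid). AML, T-ALL and AUL were neighbours in order whose counting intervals overlapped, and B-ALL stood above them. The AUL fold was 1.26 (1.20 to 1.31), against 6.32 (5.91 to 6.77) in AML. The mean log2 difference of Umps was 1.64 (SE 0.44), and its limma adjusted p was 0.0641.

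Ctps, which aminates UTP to CTP (ENSMUSG00000028633, chromosome 4, 120539868 to 120570276), separated the groups by more. The FPKM of Ctps was 116.4 (B-ALL), 82.4 (T-ALL), 81.7 (AUL) and 75.6 (AML), against 37.8 (lineage-negative), 23.9 (B), 15.5 (T) and 4.29 (myeloid) in normal cells. T-ALL and AUL could not be told apart by their counting intervals, and the lowest leukaemia was 2.00-fold above the highest normal library. Ctps rose by a mean log2 difference of 2.38 (SE 0.47, limma adjusted p = 0.0445), from 17.6-fold in AML (15.7 to 19.8) to 2.16-fold in AUL (2.05 to 2.28).

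Of the purine enzymes, Ppat catalyses the committed step, the transfer of an amino group to phosphoribosyl pyrophosphate (ENSMUSG00000029246, chromosome 5, 76913249 to 76951578). Its FPKM was 53.0 (B-ALL), 48.7 (AUL), 47.0 (T-ALL) and 41.9 (AML). In normal cells Ppat had 20.5 (lineage-negative), 10.6 (T), 9.47 (B) and 2.46 (myeloid). The groups did not overlap, and the leukaemias spanned 1.27-fold and the normal libraries 8.32-fold. Ppat rose by a mean log2 difference of 2.32 (SE 0.46, limma adjusted p = 0.0446).

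Paics, a bifunctional enzyme of the middle of the pathway, is the head-to-head neighbour of Ppat (ENSMUSG00000029247, chromosome 5, 76951307 to 76967509). It had nearly the same level in the leukaemias, 236.4 (B-ALL), 230.5 (AUL), 222.1 (T-ALL) and 219.8 FPKM (AML), and each neighbour in that order had overlapping counting intervals. The normal libraries had 191.7 (lineage-negative), 89.0 (B), 81.5 (T) and 29.7 (myeloid). Paics differed by 1.20-fold (1.17 to 1.24) in AUL and 7.40-fold (7.05 to 7.76) in AML. Its mean log2 difference was 1.49 (SE 0.45), which did not pass (limma adjusted p = 0.0779). Exons of Paics and Ppat overlap by 272 bases on opposite strands, 8.67% of the exonic bases of Paics and 6.15% of those of Ppat, and without a stated strand setting the fragments there cannot be assigned to either gene.

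Gart, a trifunctional enzyme that acts before Paics (ENSMUSG00000022962, chromosome 16, 91621186 to 91646952), was the member in which AML was highest. It had 165.7 (AML), 165.5 (B-ALL), 114.5 (T-ALL) and 103.4 FPKM (AUL), and the counting intervals of AML and B-ALL overlapped. Under median-ratio scaling, and under scaling to a common FPKM sum, B-ALL was above AML. Normal cells had 51.3 (lineage-negative), 27.4 (T), 24.5 (B) and 11.9 FPKM of Gart (myeloid), each under all leukaemias. Gart rose by a mean log2 difference of 2.35 (SE 0.47, limma adjusted p = 0.0445). The antisense gene Gm15964 shares 1014 exonic bases with Gart and had at most 3.64 FPKM. Smaller overlaps with genes on the other strand were 213 bases for Umps (Gm15829), 83 for Tk1 (Afmid) and 48 for Impdh2 (Ndufaf3).

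Atic carries out the last steps to IMP (ENSMUSG00000026192, chromosome 1, 71557150 to 71579631). Its FPKM was 189.0 (T-ALL), 177.8 (B-ALL), 144.9 (AUL) and 124.1 (AML), against 86.5 (lineage-negative), 55.4 (T), 40.7 (B) and 10.6 (myeloid) among normal cells. The groups did not overlap, and no neighbours in this order had overlapping counting intervals. The mean log2 difference of Atic was 2.00 (SE 0.46), and the limma adjusted p was 0.0548.

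Impdh2, the enzyme that commits IMP to guanine nucleotides (ENSMUSG00000062867, chromosome 9, 108560286 to 108565584), had 405.2 (T-ALL), 379.7 (B-ALL), 323.6 (AUL) and 291.0 FPKM (AML). The normal cells had 194.7 (lineage-negative), 115.3 (B), 108.6 (T) and 28.6 FPKM of Impdh2 (myeloid). Normal B and T cells had overlapping counting intervals, and every leukaemia was above them. Its mean log2 difference was 1.91 (SE 0.45, limma adjusted p = 0.0573). Its isoform Impdh1 was ordered differently, with 210.1 (AML), 135.3 (T-ALL), 85.3 (AUL) and 54.5 (B-ALL), against 15.5, 88.5, 89.1 and 33.6 in the normal library of each gate. Impdh1 overlapped between the groups, and its log2 ratio was 3.67 in AML and -0.06 in AUL. The mean annotated transcript length behind the Impdh2 values is 802 bases, so its FPKM cannot be ranked safely against that of genes with longer models.

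Nme1, a nucleoside diphosphate kinase that equalises the triphosphate pools (ENSMUSG00000037601, chromosome 11, 93956979 to 93968521), was the only member with its highest level in AUL. It had 61.2 (AUL), 42.8 (B-ALL), 42.1 (T-ALL) and 22.6 FPKM (AML), against 16.6 (lineage-negative), 11.2 (T), 9.10 (B) and 2.13 (myeloid) in normal cells. The groups did not overlap, and B-ALL and T-ALL were alike within counting error. Nme1 rose by a mean log2 difference of 2.17 (SE 0.38, limma adjusted p = 0.0418). The fold in AUL was 3.69 (3.43 to 3.97), the highest of the 10 members in that gate. Nme2, its neighbour and near-identical paralogue, had 2.79 to 5.21 FPKM in the leukaemias and 0.459 to 0.712 in the normal libraries. The annotated gene Gm20390 shares 418 exonic bases with Nme1, and how fragments common to such genes were counted is not given in the sources used here, so the levels of Nme1 and Nme2 are uncertain. Gm20390 also has exons at the place of Nme2 exons.

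Tk1, the cytosolic thymidine kinase of salvage, is induced in S phase and stood apart from the other members (ENSMUSG00000025574, chromosome 11, 117815526 to 117826092). The leukaemias had 153.7 (T-ALL), 115.3 (AUL), 108.0 (B-ALL) and 100.2 FPKM of Tk1 (AML). The normal libraries had 98.1 (lineage-negative), 51.0 (B), 49.7 (myeloid) and 22.1 (T), so that AML and normal lineage-negative cells had overlapping counting intervals. The fold of Tk1 was 6.95 (6.48 to 7.45) in T-ALL and 1.18 (1.13 to 1.23) in AUL. Its mean log2 difference was 1.26 (SE 0.45), which did not pass (limma adjusted p = 0.10). Under median-ratio scaling the lowest leukaemia was at 0.964 of the highest normal library and the AML log2 ratio of Tk1 was 0.01, so for this gene the groups then overlapped. Under scaling to a common FPKM sum the ratio was 1.03. Tk2, the mitochondrial thymidine kinase, had 11.3 to 33.5 in the leukaemias and 29.9 to 68.6 in the normal libraries, and was lower in 4 of 4 pairs (mean log2 difference -1.19, limma adjusted p = 0.0732).

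By the ratio of the highest to the lowest library, the members ranged less among leukaemias than among normal cells. By deposited FPKM the lowest normal library was the myeloid one for 9 of 10 members. Without it, Cad (37.0 to 63.5 FPKM) and Nme1 (9.10 to 16.6) had smaller ratios among normal cells than among leukaemias. The other members still had larger ones. These ratios were not taken over all genes. The ratio of the highest to the lowest leukaemia ran from 1.08 (Paics) to 2.71 (Nme1), and that of the normal libraries from 4.30 (Gart) to 13.9 (Cad). The summed level of the 10 members was 1539 (B-ALL), 1524 (T-ALL), 1347 (AUL) and 1171 FPKM (AML). It was 788.3 (lineage-negative), 411.7 (B), 389.5 (T) and 149.9 (myeloid) in normal cells. These sums add genes with unlike transcript lengths. Impdh2, with its short models, was the largest part in every leukaemia (291.0 to 405.2 FPKM). Compared with the second highest normal library, the lowest leukaemia was 1.93-fold (Cad) to 3.97-fold (Ppat) higher.

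Within the gates, at least 2-fold higher levels on the log2(FPKM + 1) scale were found for 10 of 10 members in B-ALL (18.2% of the genes that reached an FPKM of 1 in either library), 10 of 10 in T-ALL (22.1%), 9 of 10 in AML (43.3%) and 4 of 10 in AUL (13.6%). The 4 in AUL were Cad, Ctps, Ppat and Nme1, and Gart lay just under the line (log2 ratio 1.00 after rounding, 2.02-fold). No member was 2-fold lower in any gate, where this held for 21.9% (B-ALL), 24.0% (T-ALL), 26.7% (AML) and 29.5% of genes (AUL). The median log2 ratio of the members was 3.36 (AML), 2.11 (B-ALL), 1.96 (T-ALL) and 0.87 (AUL), beside 0.19, 0.01, -0.02 and -0.17 for all genes tested. Median-ratio scaling moved the last values to -0.18, -0.11, -0.22 and -0.15, and the members' medians to 2.40, 1.94, 1.66 and 0.90. It also reversed the balance of 2-fold calls over all genes in AML, from 4311 higher and 2662 lower to 2481 and 4415. In T-ALL lower calls outnumbered higher ones under both scalings, and the counts went from 2309 and 2514 to 1633 and 3072. In each gate 10 of 10 members lay above the median gene under all 3 scalings.

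**Figure D2:**
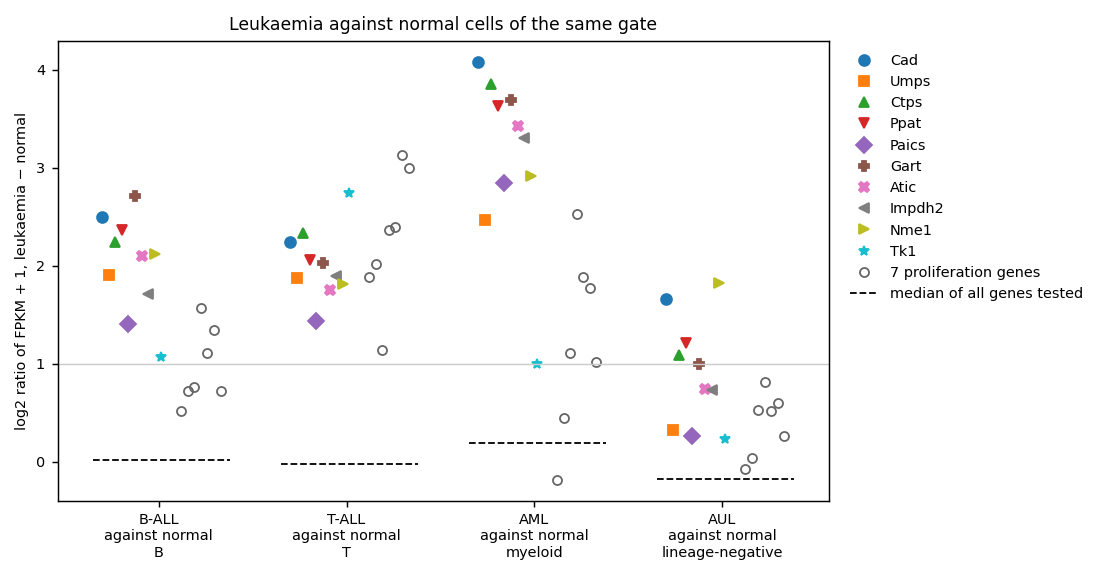
Log2 ratio of FPKM + 1, leukaemia minus normal cells of the same gate, for the 10 enzyme genes (coloured symbols), 7 proliferation genes (open circles) and the median of all genes tested (dashed), with a grey line at a 2-fold difference. In the myeloid gate 9 members lie between 2.47 and 4.08 with Tk1 at 1.00, while the median of the proliferation genes is 1.11.

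Markers of dividing cells moved with the members in part. The 7 proliferation genes (Mki67, Top2a, Pcna, Mcm2, Mcm5, Ccnb1 and Aurka, none at 0) had a summed level of 1423 to 2267 FPKM in the leukaemias and 559 to 1673 in the normal libraries. Their median log2 ratio was 2.37 (T-ALL), 1.11 (AML), 0.76 (B-ALL) and 0.52 (AUL). The order of the normal libraries differed between the lists: normal myeloid cells had more Mki67 (92.0 FPKM) than normal T cells (34.5) and less Cad (4.57 against 48.2). Of the 7, Pcna and Mcm2 were lower in normal myeloid than in normal T cells (204.9 against 291.5 and 47.0 against 85.3 FPKM). Mki67 itself had 80.8 in AML and a log2 ratio of -0.18, beside 4.08 for Cad. The other proliferation genes had log2 ratios from 0.45 (Top2a) to 2.53 (Mcm2) in the myeloid gate. The part of cell division in the results was not tested.

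The profiles of the members over the 8 libraries were alike. Of 45 pairs of members the Pearson correlation of log2(FPKM + 1) was 0.64 to 0.99 with a median of 0.96, and without Tk1 the lowest was 0.90. These are descriptions over 8 libraries that share their scaling and the split into leukaemia and normal. The genes outside the 10 with profiles most like the members' mean were Rad18 (0.9987), Gcsh (0.9983), Utp6 (0.9954), Nifk (0.9951) and Eif4e (0.9951) of 11071 genes. Rad18, a ubiquitin ligase of DNA damage tolerance, had 23.6 to 29.6 FPKM in the leukaemias and 5.18 to 17.0 in the normal libraries. Gcsh, a protein of the glycine cleavage system, had 37.8 to 56.3 and 2.62 to 24.1.

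Other enzymes of nucleotide metabolism were listed by role, 76 genes in 8 lists, of which 57 were in the table and 55 were tested. Of these 55, 6 rose and 2 fell by limma, beside 1.26% and 2.42% of all genes. Their median log2 difference was 0.93, against -0.08 for all genes and 2.09 for the members. In 17 of the 55 all leukaemias lay above all normal libraries (16.0% of all genes), and in 4 below (10.5%). Leaving out any of the 4 pairs ended the 6 higher calls, and the 2 lower calls remained 2 in number without the B-cell pair and were 0 without any other. Genes entered the table by a rule that is not stated, so the remaining 19 names were not analysed here.

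In the de novo purine list the other enzymes were Pfas, Adsl, Prps1 and Prps2, and 2 of 4 rose. Pfas, the formylglycinamidine synthase, had 101.6 (B-ALL), 97.96 (T-ALL), 73.8 (AUL) and 66.5 FPKM (AML), against 18.2, 12.6, 29.6 and 5.69 in the normal library of each gate (mean log2 difference 2.48, limma adjusted p = 0.0403). Adsl, which acts in the pathway to IMP and again on the way to AMP, had 244.3 (AUL), 175.7 (T-ALL), 118.6 (B-ALL) and 116.1 (AML), against 58.7, 48.8, 41.0 and 11.9 (2.14, adjusted p = 0.0418). Prps1, which makes the ribose phosphate donor, was higher in 4 of 4 pairs with a mean log2 difference of 1.90 and did not pass (adjusted p = 0.0586). Prps2 had 0.81 (adjusted p = 0.243). On the way from IMP to AMP and GMP, 0 of 4 other genes passed limma, among them Adssl1 (mean log2 difference -0.84, adjusted p = 0.268).

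In the pyrimidine list 0 of 2 other genes passed limma. Dhodh, the mitochondrial dihydroorotate dehydrogenase, had 35.8 to 48.9 FPKM in the leukaemias and 4.32 to 27.5 in the normal libraries (mean log2 difference 1.44, adjusted p = 0.0970). Cmpk1, the UMP and CMP kinase, was lower in 4 of 4 pairs (-0.54, adjusted p = 0.243). Of 11 other nucleotide kinases 0 passed limma and 8 were higher in 4 of 4 pairs, including Dtymk, the thymidylate kinase (mean log2 difference 1.63, adjusted p = 0.0601). Of the 55 genes, 34 had an unadjusted limma p under 0.05, a larger share than the 35.4% of all genes.

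Deoxynucleotide supply was mixed, with 1 of 8 genes higher and 1 lower. Dctd, the dCMP deaminase, rose by a mean log2 difference of 2.85 (limma adjusted p = 0.0451), from 1.14 to 19.3 FPKM in the normal libraries to 34.0 to 67.1 in the leukaemias. Samhd1, which hydrolyses deoxynucleotide triphosphates, fell by 2.79 (adjusted p = 0.0418). It had 133.5 (B-ALL), 40.2 (AML), 37.1 (AUL) and 16.8 FPKM (T-ALL), against 317.5, 481.3, 187.6 and 293.5 in the normal library of each gate. The ribonucleotide reductase genes Rrm1 (mean log2 difference 1.33, adjusted p = 0.0735) and Rrm2 (0.57, adjusted p = 0.303) did not pass.

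In salvage, 1 of 11 purine genes and 1 of 4 other pyrimidine genes rose and 0 fell by limma. Uck2, the uridine and cytidine kinase, had 448.3 (B-ALL), 373.6 (T-ALL), 363.3 (AUL) and 358.1 FPKM (AML). The normal libraries had 38.8 (B), 68.5 (T), 15.9 (myeloid) and 156.9 (lineage-negative), all under the leukaemias. Its mean log2 difference was 2.89 (limma adjusted p = 0.0418). Mtap, which salvages adenine from the by-product of polyamine synthesis, rose by 2.00 (adjusted p = 0.0420). Hprt, which recovers hypoxanthine and guanine, did not pass (1.04, adjusted p = 0.0917), nor did Aprt for adenine (0.93, adjusted p = 0.137) or Uckl1 (-0.56, adjusted p = 0.225).

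Among 11 genes of nucleotide breakdown 1 rose and 1 fell. Dctpp1, a pyrophosphatase that clears modified dCTP, rose by a mean log2 difference of 2.16 (limma adjusted p = 0.0428). Entpd1, the ectonucleotidase CD39, fell by 2.50 (adjusted p = 0.0418), with 1.60 to 11.7 FPKM in the leukaemias and 17.4 to 126.1 in the normal libraries, of which the myeloid one was the highest. Nt5c3b (1.44, adjusted p = 0.0618) and the guanine deaminase Gda (-1.13, adjusted p = 0.335) did not pass.

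**Figure D3:**
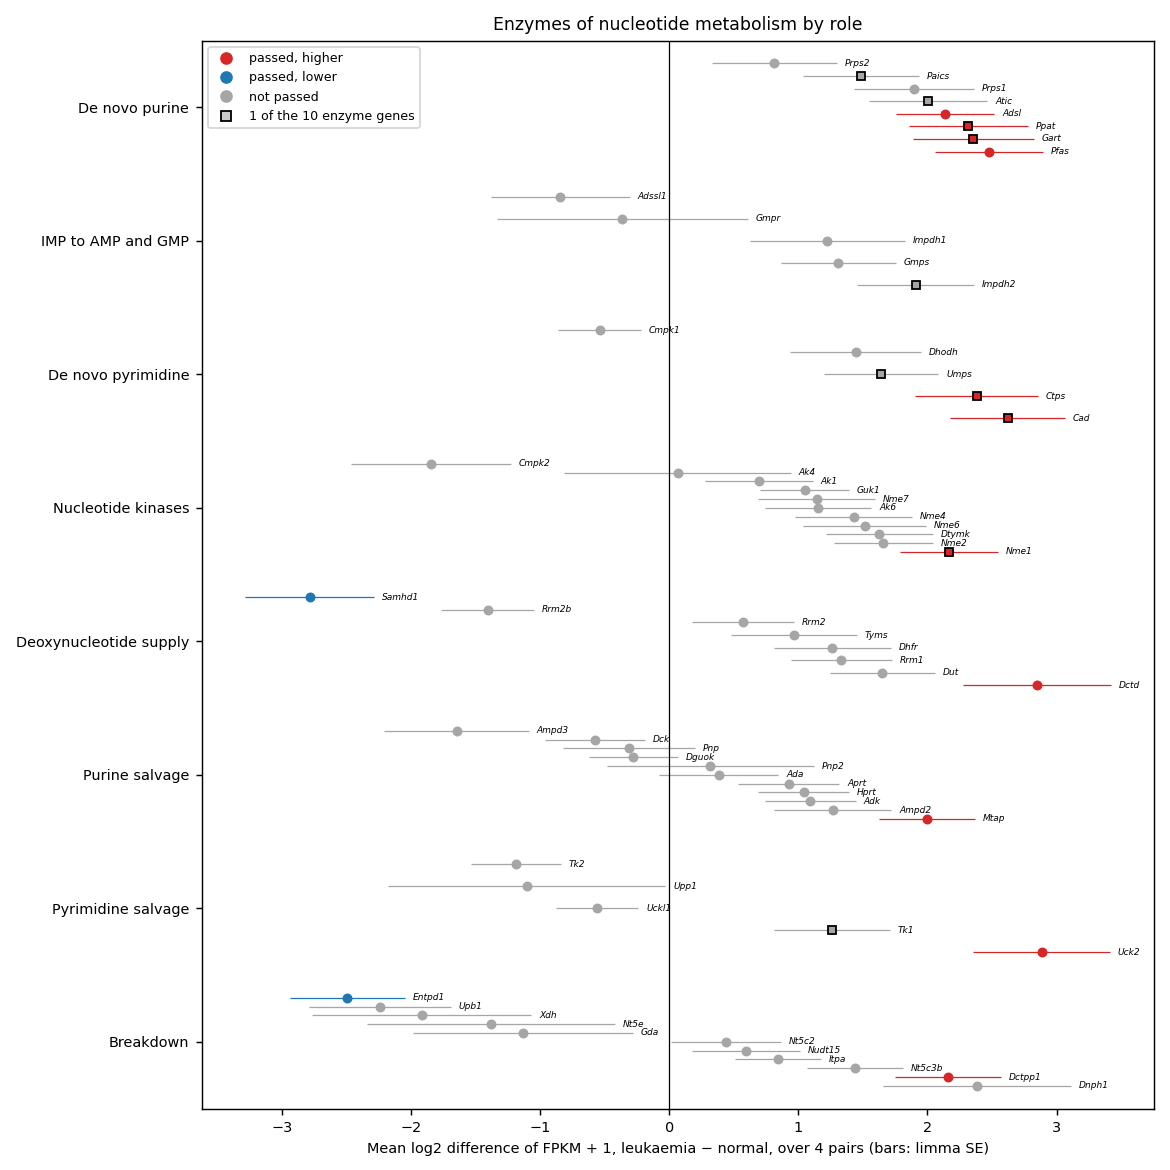
Mean log2 difference of FPKM + 1 (leukaemia minus normal, 4 pairs) of the enzymes of nucleotide metabolism, grouped by role, with limma standard errors as bars, squares for the 10 enzyme genes and colours for genes that passed the adjusted threshold. All 8 genes of the de novo purine list lie to the right of 0, whereas the breakdown list runs from Entpd1 at -2.50 to Dnph1 at 2.38.

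Mycn and Myc serve as reference. Mycn had 719 to 1858 FPKM in the leukaemias and 0.518 to 5.24 in the normal libraries. Myc had 0.251 to 2.35 in the leukaemias, and from 6.45 (myeloid) to 98.2 (T) in normal cells. Among the leukaemias AML had the highest Mycn level and, by deposited FPKM, the lowest level of 8 of the 10 members. The 8 include Paics, in which the counting intervals of AML and T-ALL overlapped. Gart had the same order of leukaemias as Mycn by deposited FPKM. Its AML and B-ALL intervals overlapped, however, and B-ALL came first under median-ratio scaling and under scaling to a common FPKM sum.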

How the data were processed

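Per the labels' protocols, poly(A) RNA of sorted cells was sequenced as paired 150-base reads. The submitters' processing notes name mm10 as the build and STAR, HTSeq and edgeR as tools, with no versions. The deposited values are FPKM made by the authors. Fragments were recovered as FPKM times the mean GENCODE M21 transcript length, which gave whole numbers (within 0.02) for 95.9% to 96.7% of values of up to 50 fragments in single-transcript genes. Of the members, Atic and Impdh2 gave whole numbers throughout, so the fragments of the other 8, and the widths of their intervals, are approximate.

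limma 3.58.1 (eBayes with trend; R 4.3.3) was fitted to log2(FPKM + 1) of genes that reached an FPKM of 1 in 2 or more libraries. The model had the gate as a block, 3 residual degrees of freedom and a Benjamini-Hochberg threshold of 0.05. The fit was tested on simulated data in which all genes had the same spread, unlike the real genes. That test checks the code and gives no error rates for these data. With 1 library per group, comparisons within a gate have no test. Named genes were the members, up to 4 passing and 2 non-passing genes per list, 5 genes of like profile, and the reference genes and paralogues; 1 gene named by this rule is not reported or plotted here. Members and lists were chosen with earlier results of these data known. Alternatives were other pseudocounts, filters, scalings, models and comparators, and leaving out each pair.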

Additional observations from a re-analysis of the deposited data

Results flagged for a closer look

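In 2 of 30 sets of 4 values (leukaemias, normal libraries or paired ratios of each member), 1 value stood far from the others, which chance does in about 1 set in 20. Cad was low in AML (93.3 FPKM against 202.8 to 232.5 in the other leukaemias), with a gap of 0.850 of the range on the log2 scale. Umps was high in B-ALL (46.6 FPKM against 34.9 to 36.5), also with a gap of 0.850 of the range.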

How the results depend on the processing

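All 10 members kept a positive mean log2 difference under each of the 12 alternatives of the limma fit. The number that passed was 7 with a pseudocount of 0.1, with median-ratio scaling or with a minimum FPKM of 5 in 2 or more libraries, each time Cad, Ctps, Gart, Nme1 and Ppat with Atic and Impdh2. It was 2 without a variance trend (Cad and Nme1), 1 with scaling to a common FPKM sum (Cad), and 0 with a pseudocount of 5, without a filter, or without the replicate block (the gate left out of the model), although 10 of 10 had an unadjusted p under 0.05 in each of these last 3 (33.3%, 26.6% and 31.7% of all genes). Leaving out 1 pair gave 0 members in each case, with adjusted p of 0.0537 to 0.299. Over all genes, 140 higher and 268 lower calls became 309 and 530 (pseudocount 0.1), 3 and 0 (pseudocount 5), 253 and 642 (median-ratio), 33 and 137 (common sum), 3 and 0 (no filter), 434 and 507 (stricter filter), 8 and 33 (no replicate block), 72 higher (no trend), and 0 to 11 higher and 0 to 162 lower when 1 pair was left out. Of the other pathway genes, 6 higher and 2 lower became 0 and 0 (pseudocount 5, no filter, no replicate block), 1 higher (common sum), 10 higher (stricter filter), 5 lower (median-ratio), and 0 higher and 0 to 2 lower when 1 pair was left out. Their unadjusted p was under 0.05 for 21 to 35 genes, and that of all genes for 25.2% to 40.1%. The cause was not tested. Within the gates, the AUL count of 4 members became 7 with a 1.5-fold limit and 10 with the mean of the 4 normal libraries as comparator, while the count over all genes went from 1461 to 2747 and 2518. Members above all normal libraries were 9 under median-ratio scaling (not Tk1) and 10 otherwise, pairs left out included. The 16.0% of all genes that separated in this way is for the deposited values with every pair kept. With a pair left out fewer libraries have to separate, so that share is no measure for those counts. Intervals cover counting error only, and 1 library per group limits every comparison within a gate.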

Other observations

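In AML some enzymes outside the 10 were at their highest of the 8 libraries, as a choice made after their values were seen. Impdh1 had 210.1 FPKM in AML against 54.5 to 135.3 in the other leukaemias. Aprt, which salvages adenine, had 374.0 against 128.3 to 166.5. The nucleoside diphosphate kinase Nme6 had 72.1 in AML and 23.7 to 28.3 in the other leukaemias, whereas Nme1 had its lowest leukaemia level there (22.6), as did Nme4 (3.73 against 17.9 to 45.4).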
